A study of Mus musculus with 18 samples.

Results

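The neural crest is a transient population of cells that leaves the dorsal neural tube, migrates through the embryo, and forms peripheral neurons and glia, pigment cells, much of the facial skeleton and, in the cardiac region, the septum of the outflow tract. The 10 genes described here are transcription factors and receptors of this lineage: Twist1, Snai1, Snai2, Sox9, Sox10 and Tfap2a on the nuclear side, and Pdgfra, Ednra, Ednrb and Ret on the cell surface. They were chosen by symbol, and 8 of the 10 had a probe set annotated to them alone, 1 each, out of 6137 named genes on the arrays. Ednra and Sox9 were not analysed here. Of the 8, 5 were bright enough to be tested in the fit across all probe sets: Twist1, Snai1, Snai2, Sox10 and Pdgfra.

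Mouse embryos of embryonic day 9.5 were cut into 3 parts, and total RNA of the middle one was measured in embryos null, heterozygous or wild type for Nkx2-5 (Csx), which encodes a homeodomain regulator of heart formation. Each genotype was hybridised to 3 arrays of each of 2 array types, a and b, which carry different probe sets. Null arrays are numbered 2, 6 and 8 on type a and 2, 6 and 9 on type b, heterozygous arrays 3, 4 and 8, and wild-type arrays 1, 5 and 7. The null allele is described in the labels only as homozygous mutant, and pooling, litter and somite stage are not stated, so the p-values cover the variation from array to array alone, part of which may be technical. The deposited intensity is linear and background-subtracted, so it can be negative. A floor of 2 noise SD was set, 375.1 for type a and 523.1 for type b, below which values have no order. The arrays shared a trimmed mean intensity of 1502 to 1503 on type a. Null array 8 of type a stood apart, with a 3' to 5' actin signal ratio, a sign of RNA quality, of 2.5 against 0.967 to 1.41 on the other type a arrays, and so did null array 9 of type b, with 2.28 against 0.849 to 1.4. The BioB control probe sets also averaged 3950 on null array 8 against 966 to 1539 on the other type a arrays. On type b they averaged 4531 on null array 9 against 1498 to 2320. The cause of these differences was not tested. Results of the tested members in null embryos, against wild type and against heterozygous embryos, are therefore also given without null array 8. In each genotype the arrays of 1 number also had far more signal for Afp, a product of yolk sac endoderm and liver bud, than the others: 1257.3 to 1775.2 on null array 2, heterozygous array 4 and wild-type array 1 of type a, against 90.6 to 233.8 on the other 6, and 3309.1 to 3641.9 against 336.7 to 705.9 on type b. With these arrays as a block no member passed in any comparison, and without them the log2 fold change of null over wild type was 0.60 for Snai2 (adjusted p = 0.712) and 0.65 for Pdgfra (adjusted p = 0.726).

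Several of these genes are also active outside the crest. Twist1, Snai1 and Pdgfra are known from head, somitic and lateral mesoderm, Tfap2a from surface ectoderm, and Ret from the nephric duct. The tissue was not sorted, so a change in the number of crest cells and a change in RNA per cell cannot be told apart. No value can be assigned to crest cells alone.

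Promoters of 6 of the 10 genes, 7 windows in all, were found in a table built from RefSeq on GRCm38.p6, from 250 bases before to 50 after the start. Of the members whose promoters were found, Pdgfra is the one whose null values lay apart from wild type, and Snai1 carries the E-box motif of the Snail family, whose proteins bind such sites, so these are shown 5' to 3' with E-box letters (CANNTG, both strands) in capitals. The Pdgfra window is chr5:75152001-75152300 on the + strand and the Snai1 window is chr2:167537945-167538244 on the + strand.
Pdgfra: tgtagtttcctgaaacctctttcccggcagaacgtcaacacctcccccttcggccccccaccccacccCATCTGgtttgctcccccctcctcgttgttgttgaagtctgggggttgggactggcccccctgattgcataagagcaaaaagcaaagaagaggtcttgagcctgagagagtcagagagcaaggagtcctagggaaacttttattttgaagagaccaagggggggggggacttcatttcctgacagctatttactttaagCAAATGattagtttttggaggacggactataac
Snai1: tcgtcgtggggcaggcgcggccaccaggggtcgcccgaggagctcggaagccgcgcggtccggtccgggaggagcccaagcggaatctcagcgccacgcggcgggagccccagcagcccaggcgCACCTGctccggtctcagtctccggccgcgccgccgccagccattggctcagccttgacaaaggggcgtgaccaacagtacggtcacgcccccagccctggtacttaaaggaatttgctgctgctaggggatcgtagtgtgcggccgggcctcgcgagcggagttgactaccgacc
The Pdgfra window held 2 E-boxes, and 72.3% of all 32851 promoter windows held at least 1. The Snai1 window held 1 E-box, of the Snail type (CAGGTG, which is itself an E-box, read on the other strand here), a motif found in 20.2% of windows, and 1 match to the Tfap2 motif GCCNNNGGC, found in 16.6%. The Nkx2-5 element TNAAGTG was searched on both strands too and was found in 11.5% of all windows, in neither of the 2 shown and, among the members, in that of Ednra only. A match describes these letters and is not a binding site.

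**Figure D1:**
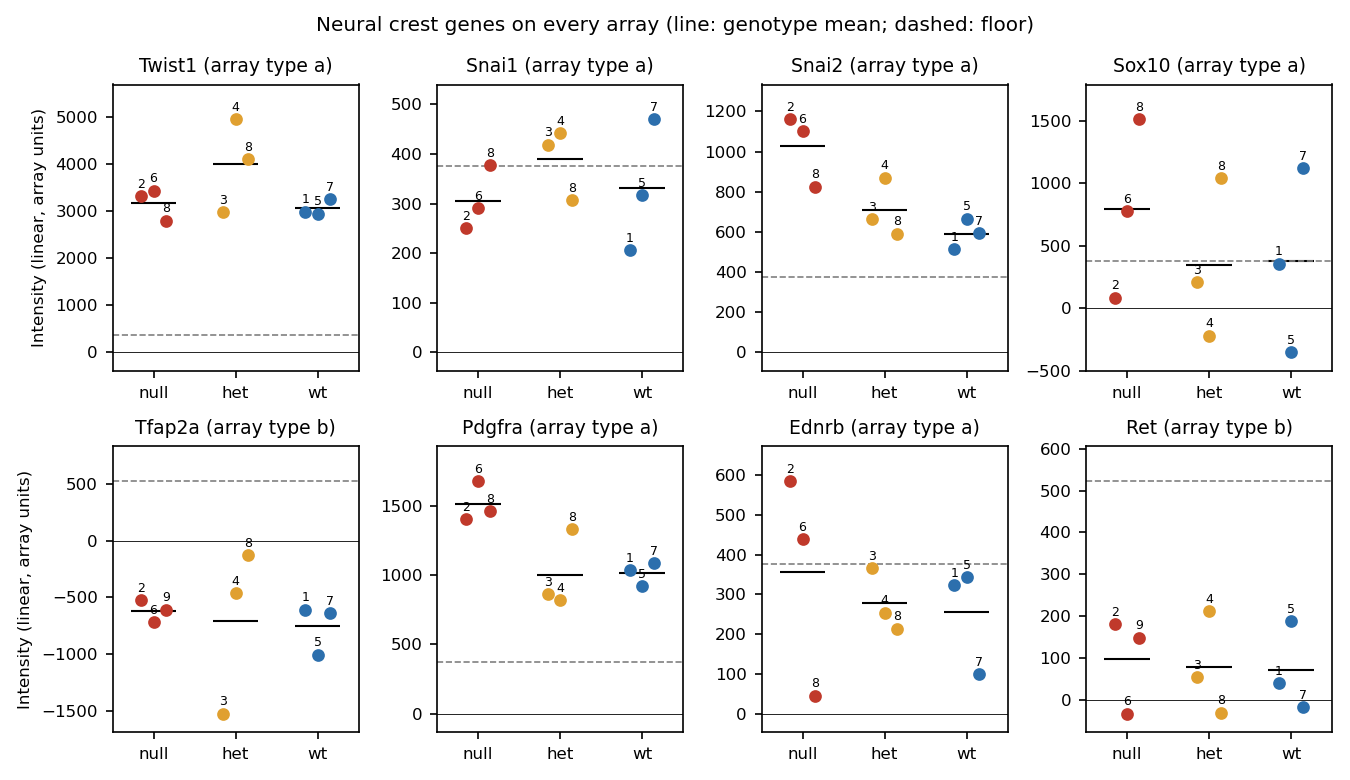
Intensity (linear, array units) of the 8 measured genes on each of the 9 arrays of their array type; points are arrays labelled with their number, black lines genotype means and the dashed line the floor. Pdgfra and Snai2 on all 3 null arrays lie above all 3 wild-type arrays, whereas Tfap2a and Ret stay under the floor on every array.

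None of the 5 tested genes changed in null embryos against wild type, where 0.692% of all 6935 tested probe sets did (limma adjusted p under 0.05, 48 probe sets). Of the 5, 4 had a positive log2 fold change and 1 a negative one, with a median of 0.49, against -0.02 over all tested probe sets, of which 47.0% were positive. In 2 of the 5, Snai2 and Pdgfra, the null and wild-type values did not overlap, as in 15.4% of all tested probe sets with 7.24% in the higher and 8.19% in the lower direction. The same 2 genes had an unadjusted p under 0.05, as had 777 of the 6935 probe sets.

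Among the transcription factors of the epithelial to mesenchymal transition, Snai2 (Slug), a zinc-finger repressor of cell adhesion genes, gave the largest difference of the 5 tested genes. It had an intensity of 1159.9, 1102.7 and 824.5 on null arrays 2, 6 and 8, and 662.1, 870.0 and 591.2 on heterozygous arrays 3, 4 and 8, against 515.3, 665.8 and 593.2 on wild-type arrays 1, 5 and 7. All null values exceeded all wild-type values, and heterozygous array 4 exceeded null array 8. The means were 1029 ± 179 in null, 708 ± 145 in heterozygous and 591.4 ± 75.3 in wild-type embryos (SD, n = 3 each). The log2 fold change of null over wild type was 0.79 (SE 0.256, 95% interval 0.23 to 1.35), a 1.73-fold difference that did not pass (adjusted p = 0.249). Without null array 8 it was 0.94 (adjusted p = 0.153). Doubling the floor, which lifts the wild-type values to it, gave 0.44 (adjusted p = 0.235).

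Snai1 (Snail), the related repressor that is also needed in mesoderm, lay around the floor. It had 249.7, 290.7 and 378.1 on null arrays 2, 6 and 8, 419.0, 442.3 and 306.8 on heterozygous arrays 3, 4 and 8, and 205.9, 317.2 and 469.7 on wild-type arrays 1, 5 and 7. Only 4 of 9 arrays exceeded the floor, 1 null, 2 heterozygous and 1 wild type, and the groups overlapped. The log2 fold change of null over wild type was -0.10 (SE 0.154, 95% interval -0.44 to 0.23, adjusted p = 0.880). With the floor at 1 noise SD, under which no null or wild-type value lay, it was -0.05 with a larger SE of 0.345. The SE of 0.154 rests in part on arrays tied at the main floor, so it understates the spread of Snai1 in every comparison. The narrow interval is therefore not precise evidence of no change. Without null array 8 the log2 fold change was -0.11.

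Twist1, a basic helix-loop-helix factor of cranial mesenchyme and crest, lay above the floor on every array. Its intensity was 3316.7, 3433.5 and 2801.0 on null arrays 2, 6 and 8, 2979.2, 4950.6 and 4110.2 on heterozygous arrays 3, 4 and 8, and 2991.1, 2945.8 and 3255.5 on wild-type arrays 1, 5 and 7. Null and wild-type values overlapped, and the highest 2 values were heterozygous. The means were 3184 ± 337 in null, 4013 ± 989 in heterozygous and 3064 ± 167 in wild-type embryos (SD, n = 3 each). Null over wild type came to 0.05 on the log2 scale (SE 0.192, adjusted p = 0.948), with a 95% interval from 0.774-fold to 1.39-fold. Without null array 8 it was 0.14 (adjusted p = 0.841).

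Of the lineage factors, Sox10, an HMG-box factor that maintains crest progenitors and directs glia and melanocytes, varied more between arrays of a genotype than between genotypes. It had 85.0, 774.5 and 1508.9 on null arrays 2, 6 and 8, 207.6, -217.5 and 1037.3 on heterozygous arrays 3, 4 and 8, and 357.1, -351.6 and 1120.7 on wild-type arrays 1, 5 and 7. Each genotype had at least 1 array above the floor and at least 1 under it. The log2 fold change of null over wild type was 0.49 (SE 0.577, 95% interval -0.77 to 1.75, adjusted p = 0.834) and -0.0034 without null array 8 (adjusted p = 1). Other single arrays moved it too: it was 1.0 without null array 2, 1.02 without wild-type array 7 and 0.23 without wild-type array 1 or 5. Tfap2a (AP-2 alpha), a factor needed for crest induction, lay under the floor on all 9 type b arrays and was negative on every one, from -1521.1 to -128.1. A probe set negative on every array gives no level for Tfap2a, so no fold is given. Low or absent Tfap2a RNA cannot be read from it.

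Among the receptors, Pdgfra, the tyrosine kinase receptor for platelet-derived growth factor A and C, was the other gene whose null and wild-type values lay apart. It had 1402.7, 1678.2 and 1462.2 on null arrays 2, 6 and 8, and 863.4, 816.8 and 1328.4 on heterozygous arrays 3, 4 and 8, against 1033.4, 918.1 and 1087.6 on wild-type arrays 1, 5 and 7. The lowest null value exceeded the highest value of both other genotypes. The means were 1514 ± 145 in null, 1003 ± 283 in heterozygous and 1013.0 ± 86.6 in wild-type embryos (SD, n = 3 each). The log2 fold change of null over wild type was 0.58 (SE 0.258, 95% interval 0.02 to 1.14), a 1.49-fold difference that did not pass (adjusted p = 0.437). Without null array 8 it was 0.60 (adjusted p = 0.397).

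Ednrb, the endothelin receptor needed for melanocyte and enteric crest cells, was above the floor on 2 of 9 arrays and was not tested. It had 585.0, 438.6 and 45.5 on null arrays 2, 6 and 8, 365.0, 254.3 and 214.1 on heterozygous arrays 3, 4 and 8, and 323.7, 343.8 and 99.5 on wild-type arrays 1, 5 and 7. Both arrays above the floor were null, and the values under it, that of null array 8 among them, have no order. Ret, the receptor for glial cell line-derived neurotrophic factor, lay under the floor on every type b array, from -33.2 to 212.7, with a median of 54.7.

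Null embryos were also compared with heterozygous ones. None of the 5 genes passed, where 1.15% of tested probe sets did, and 3 had a positive and 2 a negative log2 fold change. Pdgfra differed by 0.63 on the log2 scale (SE 0.258, 95% interval 0.06 to 1.19, adjusted p = 0.268), and its values did not overlap, as in 22.6% of tested probe sets and 9.99% in the higher direction. With array quality weights this difference was 0.84 and passed (adjusted p = 0.0190). Under those weights limma called 708 of 6935 probe sets, in place of 80. The Pdgfra difference was 0.50 without heterozygous array 4 (adjusted p = 0.603) and 0.54 without heterozygous array 3 (adjusted p = 0.549). Without heterozygous array 8 it was 0.85 (adjusted p = 0.143). Snai2 had 0.54 (SE 0.256, adjusted p = 0.337), Sox10 0.53 (SE 0.577), Twist1 -0.31 (SE 0.192) and Snai1 -0.13 (SE 0.154). Without null array 8 the values were 0.70 for Snai2 (adjusted p = 0.233), 0.65 for Pdgfra, 0.034 for Sox10, -0.22 for Twist1 and -0.13 for Snai1. Other single arrays moved some of these too: Sox10 was 1.04 without null array 2, 0.28 without heterozygous array 3 or 4 and 1.02 without heterozygous array 8. Twist1 was -0.14 without heterozygous array 4 and -0.51 without heterozygous array 3, and Snai1 was -0.19 without heterozygous array 8, -0.08 without heterozygous array 4 and -0.35 with the floor at 1 noise SD. These comparisons share the null arrays with the comparison to wild type, and the wild-type comparisons share theirs, so the values are set side by side only.

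In heterozygous embryos against wild type none of the 5 genes passed, where 0% of tested probe sets did (0 of 6935 by limma, with 118 at an unadjusted p under 0.05). The groups overlapped for all 5, against no overlap in 6.37% of tested probe sets. For Twist1, with the means given above, the difference was 0.36 on the log2 scale (SE 0.192, 95% interval -0.06 to 0.78, adjusted p = 1). Without heterozygous array 4 it was 0.19 and without heterozygous array 3 it was 0.56. The others had 0.25 for Snai2 (SE 0.256), 0.02 for Snai1 (SE 0.154), -0.04 for Sox10 (SE 0.577) and -0.05 for Pdgfra (SE 0.258). For Pdgfra the 95% interval ran from 0.655-fold to 1.43-fold, and for Snai2 from 0.804-fold to 1.75-fold. Snai2 was 0.09 without heterozygous array 4 and 0.15 without wild-type array 1, and Snai1 was 0.30 with the floor at 1 noise SD.

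**Figure D2:**
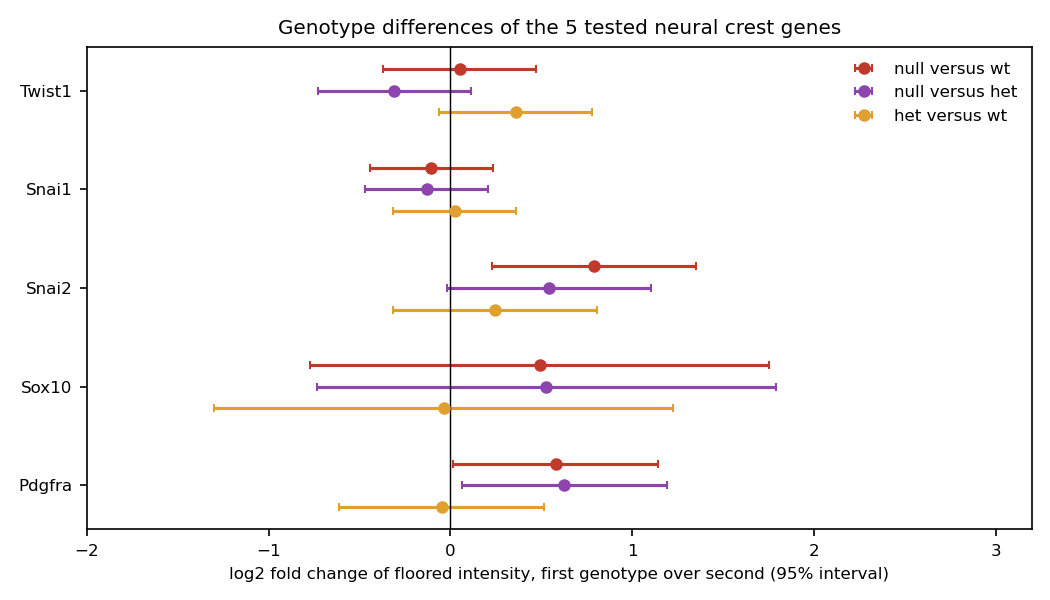
Log2 fold change of floored intensity for the 5 tested genes in 3 comparisons, first genotype over second; points are limma estimates and bars 95% intervals. The Snai2 interval for null versus wt (0.23 to 1.35) and both Pdgfra intervals with null embryos lie above 0 before adjustment, and the Sox10 intervals are the widest.

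The 5 tested genes did not follow 1 common pattern over the 9 type a arrays, which share depth and genotype differences. Pearson's r of floored log2 intensity ran from -0.53 for Snai1 with Pdgfra to 0.60 for Sox10 with Pdgfra, and it was 0.49 for Snai2 with Pdgfra. Snai1 and Sox10 exceeded the floor on only 4 of 9 arrays each, so values tied at the floor enter every r of these 2 genes. Among the 3133 other named probe sets of type a, the one closest to Snai2 was the less bright probe set of Slc2a3, a glucose transporter (r = 0.97). It averaged 5271 in null, 1455 in heterozygous and 987 in wild-type embryos. Slc2a3 rose in null embryos there (log2 fold change over wild type 2.43, adjusted p = 0.0189). The closest gene to Pdgfra was Ddx19b (r = 0.95), to Sox10 Jarid2 (r = 0.98), to Snai1 Tbxas1 (r = 0.94) and to Twist1 Adgrl1 (r = 0.86), as descriptions over 9 arrays. Each r is the highest of 3133. The genotype means lay around the floor of 375.1 for Ddx19b (215 to 544), Jarid2 (182 to 480) and Tbxas1 (120 to 423). Shared values at the floor therefore limit what these r describe.

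The ligands and partners of the receptors did not pass in any comparison. Of 7 genes of endothelin signalling 3 were tested, and against wild type the null log2 fold changes were 0.34 for Ece1, the enzyme that releases active endothelin, -0.33 for Edn3, the ligand of Ednrb, and -0.39 for Gna11, a G protein of the pathway. Edn1, the ligand of Ednra in the pharyngeal arches, was not tested: its type a probe set had 333.9, 467.7 and 520.3 on the null arrays, 179.4, 235.0 and 329.8 on the heterozygous arrays and 14.5, 79.1 and 231.8 on the wild-type arrays. Only 2 of these values, both null, exceeded the floor, and the type b probe set of Edn1 was under the floor on every array. Pdgfa, the ligand of Pdgfra, had 0.45 (adjusted p = 0.790) and Pdgfrb, the partner receptor, 0.34 (adjusted p = 0.866). Of the Ret ligands and co-receptors Gdnf had -0.07 and Gfra3 0.27. Gdnf exceeded the floor on only 1 array of each genotype, so its value rests mostly on arrays set to the floor. The other, less bright probe set of Gfra3 was lower in null embryos (mean 328, every array under the floor) than in wild type (405, 2 arrays above it). Of the crest inducers Bmp4 had 0.27, Bmp7 0.24 and Wnt1 0.22.

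A wider list of 60 other neural crest genes held 47 on the arrays and 34 that were tested, each at its probe set of highest mean level. In null embryos against wild type none of the 34 passed, 23 were positive and 11 negative, and the median log2 fold change was 0.08, against -0.02 over all tested probe sets. The values did not overlap for 5 of the 34, 4 higher and 1 lower, against 15.4% of all tested probe sets, 7.24% higher and 8.19% lower. The 4 higher were Meox1, Id2, Kit and Cdh2, with Meox1 narrowly apart (lowest null 1507.8, highest wild type 1491.5). Meox1 and Foxc2 also stand in the somite list below, and Meox1 and Prrx1 in the mesenchyme list. The lower one was Hand2, a helix-loop-helix factor of cardiac crest, arches and heart, with 314.9, 551.6 and 812.5 on the null arrays and 1101.2, 1138.3 and 1691.4 on the wild-type arrays (log2 fold change -1.06, SE 0.283, adjusted p = 0.143). Msx2, a homeobox target of Bmp signalling, had the largest positive value, 0.64 (SE 0.244, adjusted p = 0.344), although 1 wild-type array reached into the null range.

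Some genes of this list share roles with the members and were chosen after their values were seen, so their balance around 0 describes no more than these. Of all 34, 23 were positive and 11 negative. Tfap2b, the paralogue of Tfap2a, had 0.56 (adjusted p = 0.561), Erbb3, a receptor of crest-derived glia, 0.41 (adjusted p = 0.624), Kit, a receptor of melanocyte precursors that is also found on blood and germ cells, 0.57 (adjusted p = 0.313), and Twist2, the paralogue of Twist1, 0.02 (adjusted p = 0.988). Foxd3, a factor of early crest, had -0.40 (SE 0.604, adjusted p = 0.881) with values from 17.2 to 1088.5 in null and from 112.7 to 2314.0 in wild-type embryos. Pax3 and Zic1, of the dorsal neural tube, had -0.18 and -0.28. In heterozygous embryos none of the 34 passed either, with 20 positive and a median of 0.04, and in null against heterozygous embryos none passed, with 19 positive and a median of 0.06.

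**Figure D3:**
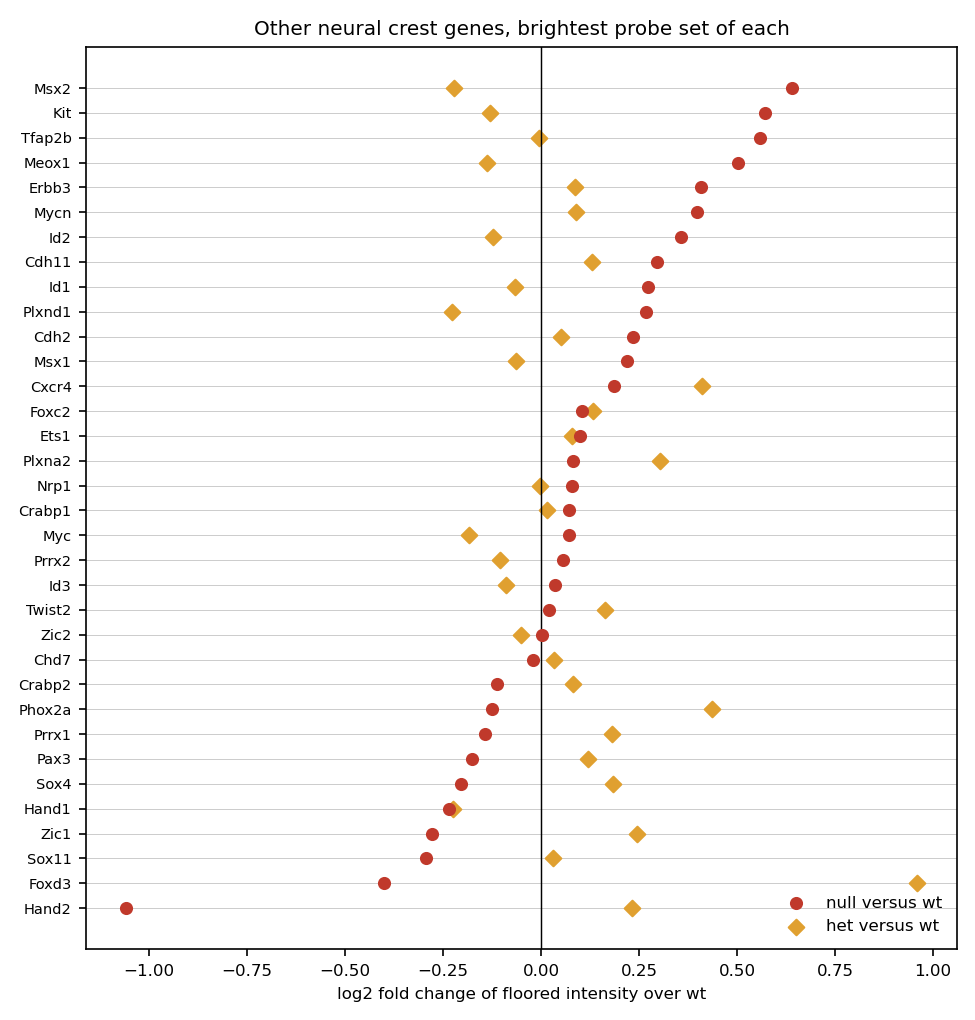
Log2 fold change of floored intensity over wild type for the 34 tested genes of the wider neural crest list, circles for null and diamonds for heterozygous embryos, sorted by the null value. Null values run from -1.06 for Hand2 to 0.64 for Msx2, and none passed the adjusted threshold.

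Of the markers of neighbouring tissues, 1 of the neural tube and 1 of epithelium passed in null against wild-type embryos, and their values stand beside those of Snai2 and Pdgfra. Of 10 tested neural tube genes all had a negative log2 fold change in null embryos, 2 of them bounds (Neurog2 and Elavl4), with a median of -0.86, and 1 fell, Nnat (6041 ± 335 in null and 10542 ± 1699 in wild-type embryos, adjusted p = 0.0313). The largest negative value was -1.95 for Tubb3, a neuronal tubulin, and the least negative -0.13 for Nkx2-2. The summed intensity of the 7 on type a was 11459 to 14775 in null, 21992 to 24600 in heterozygous and 19462 to 25697 in wild-type embryos. Of 8 tested genes of surface ectoderm and gut epithelium 6 were positive and 1 rose, Krt19, a keratin (3763 ± 262 in null and 734 ± 170 in wild-type embryos, adjusted p = 0.00141). Their summed type a intensity, over 5 genes, was 8869 to 11256 in null, 4058 to 5075 in heterozygous and 3399 to 4585 in wild-type embryos. Of these 5, the keratins Krt19 and Krt18 (4271 in null and 1722 in wild-type embryos) carried the difference, so the sum describes mainly them. Foxa1 and Foxa2 had lower means in null (439 and 684) than in wild-type embryos (516 and 780). Sox17 averaged 518 in null and 343 in wild-type embryos, where every value lay under the floor. Foxa1 had the largest negative value of that list, -0.23. In null against heterozygous embryos the marker genes that passed were Krt19 (log2 fold change 2.49, adjusted p = 0.000970), Nnat (-0.81, adjusted p = 0.0244), Hes5, which Notch activates in the neural tube (-1.26, adjusted p = 0.0335), and Pax1 of the sclerotome (-1.07, a bound, adjusted p = 0.0335).

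The mesenchyme list, which holds tissue where Pdgfra and Twist1 are also found, had 8 of 11 tested genes positive and none passed, with a median of 0.23. Its extremes were 1.5 for Postn and -0.14 for Prrx1, a bound since every null value lay under the floor. Its summed intensity over 8 type b genes was 36833 to 58279 in null, 38095 to 51881 in heterozygous and 40401 to 50998 in wild-type embryos, which overlapped. Of 4 tested somite and sclerotome genes 2 were positive, the extremes being 0.50 for Meox1 and -0.90 for Pax1, also a bound. None of the tested genes of endothelium (6), heart muscle (7), red cells (6) and liver bud (5) passed in null against wild-type embryos, with median log2 fold changes of 0.14 for endothelium, 0.12 for heart muscle and 0.17 for liver bud. Their extremes were Tie1 (0.67) and Cdh5 (0.01) for endothelium, Myl3 (0.85) and Myl2 (-0.84) for heart muscle, Hbb-y (0.16) and Alas2 (-0.46) for red cells, and Rbp4 (0.53) and Alb (-0.16, a bound since every null value lay under the floor) for liver bud. The part of these tissues in the Snai2 and Pdgfra values was not tested.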

How the data were processed

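The deposited intensity per probe set was used as it stands. The labels name no array software, background correction or scaling target (not given in the sources used here), and the values show a linear scale with negative values and a shared trimmed mean. No text names the sample preparation beyond total RNA. Control probe sets (61 per type, 55 with the maker's prefix and 6 of yeast) were left out, which left 13057 probe sets, of which 7542 had 1 symbol, updated through gene identifiers (4768 of 4777 matched on type a, 1754 of 1760 on type b). Noise SD was estimated from negative values alone, as their median absolute size times 1.4826. Values under 2 noise SD were set to that floor, log2 was taken, and a probe set was tested when at least 3 of 9 arrays exceeded it (6935). Heterozygous array 8 of type b lacks 499 values, which the fit left out. limma 3.58.1 in R 4.3.3 (lmFit, eBayes with trend, two-sided) was fitted per array type on 9 arrays, with Benjamini-Hochberg adjustment over both types and a threshold of 0.05. The test was tried on simulated data first. The number of arrays limits the precision.

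The members and gene lists were chosen with earlier results of these data known. Every member is named. From other lists, genes that passed and the largest positive and negative log2 fold change of each list in null against wild-type embryos are named, and for each tested member the named gene of highest correlation. Partners and paralogues of members (such as Edn1, Tfap2b, Twist2, Erbb3, Kit, Foxd3, Pax3 and Zic1) were chosen after their values were seen. So were the genes named to explain a count or a sum (such as Id2, Cdh2, Krt18, Foxa2 and Sox17).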

Additional observations from a re-analysis of the deposited data

How the results depend on the processing

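The 21 alternatives changed the floor, the filter, the scaling, the trend, the adjustment or the array weights, fitted only the compared genotypes, left out 1 replicate or, chosen after seeing the data, took the arrays with high Afp as a block or left them out. No member passed in null or heterozygous embryos against wild type under any of them. Against heterozygous embryos 1 member passed under 1 alternative, Pdgfra with array quality weights, where the number of changed probe sets was 708 in place of 80 and the cause was not tested. Snai2 and Pdgfra kept a positive log2 fold change over wild type under all 21, from 0.44 to 0.94 (adjusted p = 0.152 to 0.712) and from 0.50 to 0.65 (adjusted p = 0.283 to 0.726). Snai1 and Sox10 were not tested under every alternative, and both fell out with 6 of 9 arrays required. With no filter on low signal 19 probe sets changed against wild type and 45 against heterozygous embryos, and with only the compared genotypes fitted 24 and 40, where more or fewer probe sets or samples entered.

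Without the high-Afp arrays, which leaves 2 arrays per genotype, limma called 0 probe sets against wild type and 0 against heterozygous embryos (524 and 557 at an unadjusted p under 0.05), and heterozygous over wild type was -0.082 for Snai1, -0.0065 for Snai2 and 0.10 for Pdgfra. With them as a block it called 51 and 71.

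Leaving out 1 replicate at a time gave 14 to 55 changed probe sets in null against wild type, 14 to 88 in null against heterozygous and 0 to 1 in heterozygous against wild-type embryos. The count of 48 was 18 without null 2, 27 without heterozygous 3, 14 without wild type 5 and 16 without wild type 7. The count of 80 was 32 without null 2, 14, 15 and 41 without heterozygous 3, 4 and 8, and 47 without wild type 5. Of the members' log2 fold changes next to 0, those of null over wild type ran from -0.0062 to 0.14 for Twist1, from -0.16 to 0.0038 for Snai1 and from -0.0034 to 1.02 for Sox10. Those of heterozygous over wild type ran from -0.030 to 0.13 for Snai1, from -0.53 to 0.49 for Sox10 and from -0.27 to 0.084 for Pdgfra. Twist1 ran from 0.19 to 0.56 and Snai2 from 0.089 to 0.37 there. Snai1 was also 0.30 there with the floor at 1 noise SD and -0.076 after quantile normalization. No paired analysis was possible because the labels name no pairs of arrays across genotypes. Signal over background limits Snai1, Sox10 and Ednrb, which lie around the floor, and Tfap2a and Ret, which lie under it.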
